A study of Mus musculus with 28 samples.

Results

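The sensory and autonomic neuron lineage genes described here were 8 genes, Isl1, Pou4f1, Phox2a, Hand2, Ret, Ntrk2, Ntrk3 and Th, taken by name from the 28244 genes of the deposited count table and followed in all 11 groups (28 mouse libraries). The study derived neural stem cells outside the central nervous system, called peripheral NSCs (pNSCs), and compared them with brain NSCs, with neural crest stem cells (NCSCs) of dorsal root ganglia (DRG) and with tissue cells. The first experiment, described in the study's methods as Nes-GFP, held Brain-NSC, Tail-pNSC, Lung-pNSC, Tail and Lung with 2 libraries each. Its pNSCs came from adult lung and postnatal tail cells sorted for GFP under Nestin elements. Tail and Lung are what the study's legends call tissue cells. The second held Sox2-GFP brain NSCs and Sox2-GFP lung pNSCs, 3 libraries each, the lung cells sorted from postnatal knock-in mice. The third held Wnt1Cre-mTmG brain NSCs, Wnt1Cre-mTmG Tail pNSCs, Wnt1Cre-mTmG DRG pNSCs and DRG NCSCs, 3 libraries each. In Wnt1Cre-mTmG mice the progeny of Wnt1-expressing neural crest cells carry membrane GFP and other cells membrane Tomato; the postnatal tail and DRG cells were plated unsorted and the pNSC clusters obtained were Tomato-positive, whereas the NCSCs came from adult wild-type DRG. Stem cells were grown with EGF and bFGF, and pNSC clusters were picked by hand and usually clonal, so the libraries of a group may come from few founder cells. The labels give the strain as C57BL/6 for every sample, the methods describe mixed backgrounds, and the age of the brain NSC donors is not given per group.

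Isl1 and Pou4f1 encode homeodomain transcription factors that are switched on together in newborn sensory neurons and drive their terminal differentiation; Isl1 is also used by sympathetic and motor neurons. Phox2a and Hand2 specify autonomic neurons and turn on the noradrenergic phenotype, of which Th, the rate-limiting enzyme of catecholamine synthesis, is the usual readout. Ret is the signalling receptor for the GDNF family of ligands, which bind through GFRα co-receptors, and Ntrk2 (TrkB) and Ntrk3 (TrkC) are the receptors for BDNF and NT-3; in sensory ganglia the receptor a neuron keeps marks its subtype, but Ntrk2 and Ntrk3 are also made, partly as truncated forms without a kinase, by neural stem cells and astroglia.

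The DNA just upstream of the start sites is shown for the 3 members whose levels were highest in DRG NCSCs and have a RefSeq window (Isl1, Pou4f1 and Th), and for Ntrk2, which was lower there than in every stem cell group. Such windows were at hand for 6 of the 8 members. Each is the 250 bases before the RefSeq start site (GRCm38.p6), written 5′ to 3′ in the direction of the gene, with E-boxes (CANNTG, bound by basic helix-loop-helix factors such as Hand2 and the neurogenins) and the cyclic AMP response element (TGACGTCA) in capitals. The series holds no binding data, so matches describe the letters only. The windows lie at chr13:116309689-116309938 (Isl1, minus strand), chr14:104468000-104468249 (Pou4f1, minus strand), chr7:142899996-142900245 (Th, minus strand) and chr13:58806319-58806568 (Ntrk2, plus strand); that of Th lies inside the longer GENCODE gene model.
Isl1: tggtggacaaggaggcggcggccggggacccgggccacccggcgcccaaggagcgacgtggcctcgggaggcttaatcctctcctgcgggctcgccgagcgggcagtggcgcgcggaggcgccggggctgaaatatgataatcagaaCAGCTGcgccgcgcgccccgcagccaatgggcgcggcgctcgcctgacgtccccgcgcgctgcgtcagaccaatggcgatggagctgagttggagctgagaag
Pou4f1: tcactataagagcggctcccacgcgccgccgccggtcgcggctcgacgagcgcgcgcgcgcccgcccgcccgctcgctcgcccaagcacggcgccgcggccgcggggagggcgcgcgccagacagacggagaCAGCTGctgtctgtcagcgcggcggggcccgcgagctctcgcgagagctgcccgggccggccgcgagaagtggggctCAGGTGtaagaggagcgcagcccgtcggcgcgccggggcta
Th: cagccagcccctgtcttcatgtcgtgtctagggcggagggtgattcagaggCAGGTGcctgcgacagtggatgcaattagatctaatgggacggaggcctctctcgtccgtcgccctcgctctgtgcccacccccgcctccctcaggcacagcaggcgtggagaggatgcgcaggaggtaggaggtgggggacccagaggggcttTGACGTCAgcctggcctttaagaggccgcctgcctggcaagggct
Ntrk2: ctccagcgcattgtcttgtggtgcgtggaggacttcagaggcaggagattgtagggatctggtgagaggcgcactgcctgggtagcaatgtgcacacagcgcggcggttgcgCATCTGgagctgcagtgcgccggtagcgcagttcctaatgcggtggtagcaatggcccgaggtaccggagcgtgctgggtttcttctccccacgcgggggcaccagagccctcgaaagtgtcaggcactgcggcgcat
An E-box, searched on both strands, stood in all 4 of these windows and in 66.2% of 32851 windows of the same length. The CRE of Th began 45 bases before the start site, and 1.55% of all windows held one. The 4 windows held 33, 47, 13 and 19 CG dinucleotides for Isl1, Pou4f1, Th and Ntrk2, against a median of 6 over all windows.

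All 8 members are protein-coding genes of GRCm38 (GENCODE M21). Isl1 lies at chr13:116298281-116309689 (minus strand) and Pou4f1 at chr14:104461676-104467999 (minus strand); no other annotated gene overlaps them. Ret (chr6:118151745-118197718, minus strand) and Th (chr7:142892752-142931128, minus strand) also stand alone. Ntrk2 (chr13:58806569-59133970, plus strand) has 10 annotated transcripts and Ntrk3 (chr7:78175959-78738012, minus strand) has 20; counts per gene do not tell full-length from truncated receptors. Phox2a (chr7:101818313-101822726, plus strand) shares exon sequence with Inppl1 on the opposite strand, and Hand2 (chr8:57320983-57324633, plus strand) with Hand2os1; the library kit does not mark strand, so reads from these stretches cannot be assigned to one of the pair.

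Libraries held 9808246 to 22637031 counts, with the Wnt1Cre-mTmG brain NSCs and DRG pNSCs the shallowest. Levels are given as CPM, the count of a gene relative to the TMM-scaled size of its library, and a floor of 3 counts was worth 0.131 to 0.294 CPM. Fold changes are log2 values from edgeR's quasi-likelihood test within each experiment with their standard error, and a gene was called when its Benjamini-Hochberg adjusted p was under 0.05 and its change at least 1 on the log2 scale. The Sox2-GFP fit also held the Lung libraries of the Nes-GFP experiment. Sox2-GFP lung pNSCs against Lung is thus a comparison across experiments, in which cell kind and experiment cannot be told apart. Where a group had no count in any library, the fold is a bound against 3 counts per library. Over 23 replicate pairs the chi-square per gene was 1.09 to 2.82 in 21 and 16.8 and 21.0 in the 2 that involve DRG NCSC replicate 3, which stood apart. The pairs of the Nes-GFP experiment had 1.61 to 2.82 and DRG NCSC replicates 1 and 2 had 2.22. The remaining pairs had 1.09 to 1.41, little more than counting noise. The p-values thus measure a spread that may be partly technical.

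Isl1 was present in DRG NCSCs, at a lower level in Wnt1Cre-mTmG Tail pNSCs and in Tail tissue, and at or near 0 in every brain NSC library. In the 3 DRG NCSC libraries it stood at 8.02, 9.48 and 8.23 CPM (172, 199 and 140 counts). The 3 Wnt1Cre-mTmG Tail pNSC libraries had 1.11, 0.791 and 1.22 CPM (25, 17 and 24 counts). Tail tissue had 0.949 and 1.28 CPM and Lung tissue 0.212 and 0.122 CPM. All 8 brain NSC libraries, the 3 Sox2-GFP lung pNSC libraries and the 3 Wnt1Cre-mTmG DRG pNSC libraries had 0 counts, and Tail-pNSC and Lung-pNSC had 1 count each over their 2 libraries. Isl1 was thus at least 31.8-fold higher in DRG NCSCs than in Wnt1Cre-mTmG brain NSCs (adjusted p = 3.52e-10, edgeR) and at least 3.85-fold higher in Wnt1Cre-mTmG Tail pNSCs (adjusted p = 1.57e-05), and neither pair of groups overlapped. Between DRG NCSCs and Wnt1Cre-mTmG Tail pNSCs the level differed by -3.06 ± 0.18 on the log2 scale (adjusted p = 1.26e-09). Tail-pNSC of the Nes-GFP experiment lay below Tail tissue, with a count ratio of 40.6 (95% counting interval 6.85 to 1650). In bulk samples fewer cells of a type and less RNA per cell cannot be told apart.

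Fibroblast markers moved with Isl1 among the cultures of the Wnt1Cre-mTmG experiment. The summed level of the 6 fibroblast markers was 418 to 428 CPM in the Tail pNSCs, 2822 to 3478 CPM in DRG NCSCs, 33.1 to 33.9 CPM in brain NSCs and 29.0 to 32.6 CPM in DRG pNSCs; in Tail-pNSC, where Isl1 was near 0, it was 10.4 to 11.4 CPM. Brain-NSC, Lung-pNSC and Sox2-GFP lung pNSCs, also with Isl1 at or near 0, had at most 24.5 CPM. Other groups departed from this order. Sox2-GFP brain NSCs had 95 to 102 CPM of the markers with Isl1 at 0. Lung had 4063 to 4150 CPM, above DRG NCSCs, with a mean Isl1 level of 0.167 CPM. Tail had 72240 to 73690 CPM, with Isl1 at 1.11 CPM against 8.58 CPM in DRG NCSCs. The part of the fibroblast markers in the Isl1 result was not tested.

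Pou4f1 was highest in DRG NCSCs and, unlike Isl1, was also high in the Lung-pNSC libraries of the Nes-GFP experiment. DRG NCSCs had 17.3, 15.8 and 18.6 CPM and the 2 Lung-pNSC libraries 8.10 and 6.00 CPM (171 and 107 counts). Brain-NSC followed with 1.00 and 1.55 CPM and Wnt1Cre-mTmG brain NSCs with 0.446, 0.868 and 0.759 CPM. These 4 groups did not overlap with each other. The other 7 groups, Sox2-GFP lung pNSCs and both tail pNSC groups among them, lay between 0.0931 and 0.488 CPM (2 to 9 counts per library). Among these Tail-pNSC (0.116 and 0.102 CPM) overlapped with Wnt1Cre-mTmG Tail pNSCs and lay below the rest, and the highest of the 7 groups reached into the range of Wnt1Cre-mTmG brain NSCs. Against Brain-NSC, Pou4f1 rose in Lung-pNSC by 2.44 ± 0.26 (adjusted p = 1.95e-20) and fell in Tail-pNSC, where the count ratio was 11.8 (interval 4.35 to 45). Against Wnt1Cre-mTmG brain NSCs it rose in DRG NCSCs by 4.63 ± 0.18 (adjusted p = 1.14e-13) and fell by 1.96 ± 0.44 in Tail pNSCs (adjusted p = 0.000889). In Wnt1Cre-mTmG DRG pNSCs the count ratio to brain NSCs was 3.19, lower in the pNSCs (interval 1.33 to 8.80, adjusted p = 0.0133), a call that was lost without brain NSC replicate 2 (adjusted p = 0.0514) or DRG pNSC replicate 1 (adjusted p = 0.0542).

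Phox2a and Hand2, the autonomic factors, were at the edge of detection. Phox2a had 11 and 7 counts in Tail tissue (0.614 and 0.447 CPM), 2, 3 and 4 counts in DRG NCSCs and 0 to 3 counts in all other libraries. It did not pass the filter on low counts in any fit. Hand2 was at 0 in all 3 DRG NCSC libraries and in 12 of 13 pNSC libraries, with 1 count in the other. It had 8, 8 and 6 counts in Sox2-GFP brain NSCs, 3, 4 and 2 counts in Wnt1Cre-mTmG brain NSCs, 0 in both Brain-NSC libraries, 9 and 6 counts in Tail and 7 and 7 counts in Lung. Hand2 was therefore at least 2.82-fold lower in Sox2-GFP lung pNSCs than in their brain NSCs, as a count bound without a test. Reads of Inppl1 and Hand2os1 cannot be told apart from these counts where exons overlap.

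Ret had a high level in DRG NCSCs, an intermediate one in Tail and Lung and a low one in all cultured NSCs. Its values were 184, 185 and 168 CPM in DRG NCSCs (3948, 3892 and 2851 counts), 20.3 and 19.5 CPM in Tail and 10.9 and 9.70 CPM in Lung. Sox2-GFP brain NSCs had 1.69, 2.00 and 2.15 CPM. These 4 groups were separate from each other and from the rest. Wnt1Cre-mTmG DRG pNSCs (0.338, 1.18 and 1.15 CPM) and Wnt1Cre-mTmG brain NSCs (0.624, 0.868 and 0.927 CPM) overlapped. Wnt1Cre-mTmG Tail pNSCs had 0.221, 0.233 and 0.152 CPM, Sox2-GFP lung pNSCs 0.238, 0.369 and 0.132 CPM and Lung-pNSC 0.142 and 0.280 CPM, and these overlapped with Brain-NSC at 0.0501 and 0.193 CPM. Tail-pNSC had 0 counts in both libraries.

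In the test, Ret rose in DRG NCSCs against brain NSCs by 7.78 ± 0.13 on the log2 scale (adjusted p = 5.14e-19). It fell by 1.96 ± 0.45 in Wnt1Cre-mTmG Tail pNSCs (adjusted p = 0.00106) and by 2.94 ± 0.33 in Sox2-GFP lung pNSCs (adjusted p = 2.98e-18), each against the brain NSCs of its experiment. Against tissue, Ret was at least 122-fold lower in Tail-pNSC than in Tail and fell by 5.67 ± 0.31 in Lung-pNSC against Lung. In Sox2-GFP lung pNSCs against the same Lung libraries, a comparison across experiments, Ret fell by 5.41 ± 0.24. The call in Tail-pNSC against Brain-NSC (adjusted p = 0.0433) rested on 0 against 5 counts, its bound was under 1-fold, and it was lost without either Tail-pNSC library (adjusted p = 0.134 and 0.16), without Brain-NSC replicate 2 (0.303) and in DESeq2 (0.0534). The call in Tail-pNSC against Lung-pNSC, at least 1.29-fold lower, was lost without Tail-pNSC replicate 2 (adjusted p = 0.0546) or Lung-pNSC replicate 2 (0.0518).

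**Figure D1:**
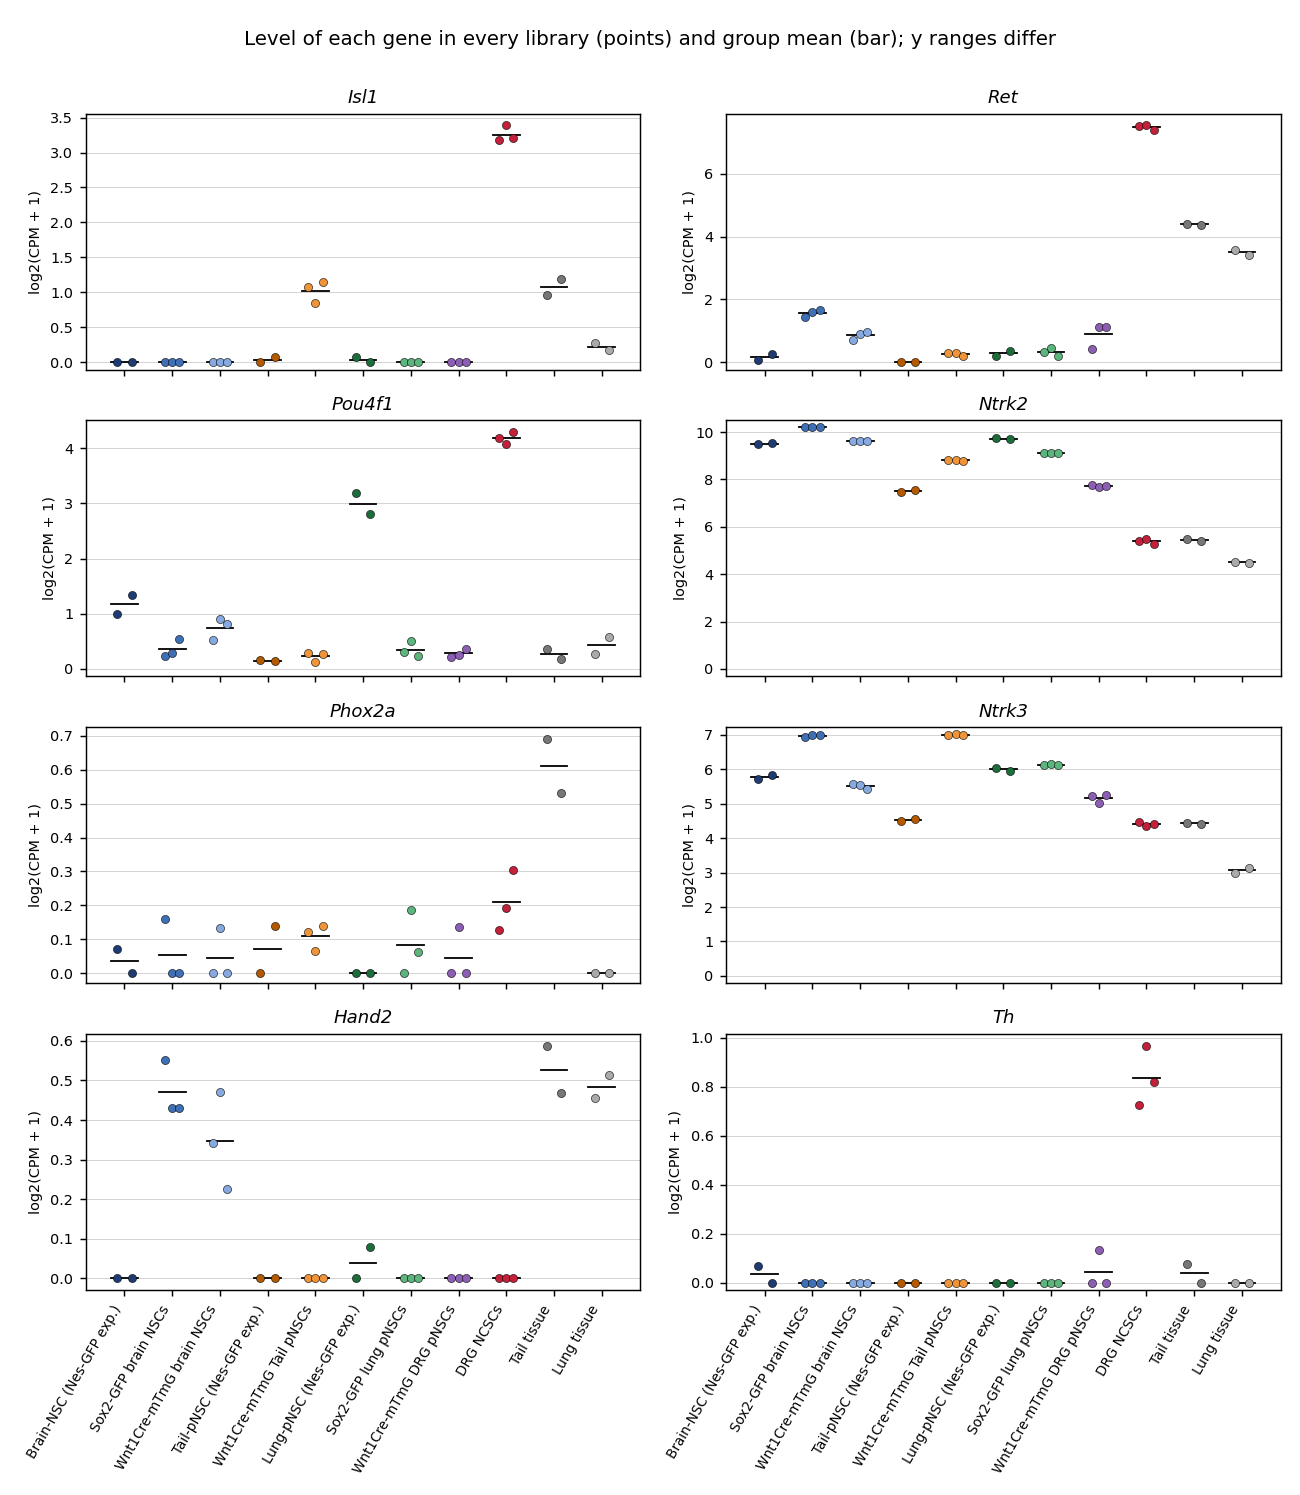
Level of each of the 8 genes as log2(CPM + 1) in every library (points) and as the group mean (bar), by group on the x axis; brain NSCs are at the left, then pNSCs, DRG NCSCs and the 2 tissues, and the y ranges differ. Isl1, Pou4f1, Ret and Th peak in DRG NCSCs, Pou4f1 has a further high group in Lung-pNSC, Ntrk2 is higher in all NSC cultures than in DRG NCSCs and tissue, and Ntrk3 is lowest in Lung and similar in Tail-pNSC (22.1 CPM), DRG NCSCs (20.2 CPM) and Tail (20.5 CPM).

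Ntrk2 ran the other way. All 21 brain NSC and pNSC libraries lay above it in DRG NCSCs and tissue, between 176 and 1180 CPM against 21.5 to 44.4 CPM. It was highest in Sox2-GFP brain NSCs at 1174, 1178 and 1180 CPM, followed without overlap by Lung-pNSC at 857 and 836 CPM, Wnt1Cre-mTmG brain NSCs at 797, 780 and 778 CPM and Brain-NSC at 728 and 733 CPM. Sox2-GFP lung pNSCs had 557, 554 and 555 CPM and Wnt1Cre-mTmG Tail pNSCs 449, 452 and 437 CPM. The lowest stem cell cultures were Wnt1Cre-mTmG DRG pNSCs at 219, 207 and 213 CPM and Tail-pNSC at 176 and 185 CPM. DRG NCSCs had 41.4, 44.4 and 38.1 CPM and overlapped with Tail at 43.5 and 41.2 CPM; Lung had 21.7 and 21.5 CPM. Relative to the brain NSCs of the same experiment, Ntrk2 fell by 4.25 ± 0.048 in DRG NCSCs, by 1.88 ± 0.042 in Wnt1Cre-mTmG DRG pNSCs, by 2.04 ± 0.035 in Tail-pNSC and by 1.06 ± 0.018 in Sox2-GFP lung pNSCs, all called. In Wnt1Cre-mTmG Tail pNSCs the change of -0.83 ± 0.040 (adjusted p = 6.48e-12) and in Lung-pNSC that of 0.19 ± 0.032 (adjusted p = 2.84e-08) passed the p threshold but stayed under the fold limit. The sum of the 6 neural stem cell markers was also lower in DRG NCSCs, at 1454 to 1841 CPM against 5791 to 5840 CPM in the brain NSCs. Of the 6, 4 were called lower. Among the pNSC groups, at 4316 to 6361 CPM, the sum did not follow Ntrk2. Wnt1Cre-mTmG DRG pNSCs (6308 to 6361 CPM) and Tail-pNSC (5727 to 5847 CPM) had the highest sums and the lowest Ntrk2. The part of these markers in the result was not tested.

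Ntrk3 followed Ntrk2 in most groups and parted from it most in Wnt1Cre-mTmG Tail pNSCs. Tail-pNSC lay close to DRG NCSCs and Tail in Ntrk3 but above them in Ntrk2, at 181 against 41.3 and 42.3 CPM. Wnt1Cre-mTmG Tail pNSCs had 126, 128 and 126 CPM of Ntrk3 and overlapped with Sox2-GFP brain NSCs at 121, 127 and 126 CPM. The next levels were Sox2-GFP lung pNSCs (69.0, 70.1 and 68.6 CPM), Lung-pNSC (64.6 and 61.0 CPM), Brain-NSC (51.3 and 55.6 CPM), Wnt1Cre-mTmG brain NSCs (47.0, 46.0 and 42.0 CPM) and Wnt1Cre-mTmG DRG pNSCs (36.0, 31.7 and 36.9 CPM), each below the one before without overlap. Tail-pNSC had 21.8 and 22.4 CPM, DRG NCSCs 21.2, 19.4 and 20.2 CPM and Tail 20.7 and 20.3 CPM, the last 2 overlapping, and Lung had 7.01 and 7.75 CPM. Ntrk3 rose by 1.48 ± 0.056 in Wnt1Cre-mTmG Tail pNSCs (adjusted p = 2.36e-13) and fell by 1.15 ± 0.065 in DRG NCSCs (adjusted p = 1.74e-11) against the brain NSCs of that experiment, and fell by 1.30 ± 0.076 in Tail-pNSC against Brain-NSC (adjusted p = 1.42e-64). Its changes of -0.36 in Wnt1Cre-mTmG DRG pNSCs, -0.83 in Sox2-GFP lung pNSCs and 0.21 in Lung-pNSC stayed under the fold limit. Tail-pNSC and Tail differed by 0.0061 ± 0.091 (adjusted p = 0.96), a value whose sign turned under other settings.

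**Figure D2:**
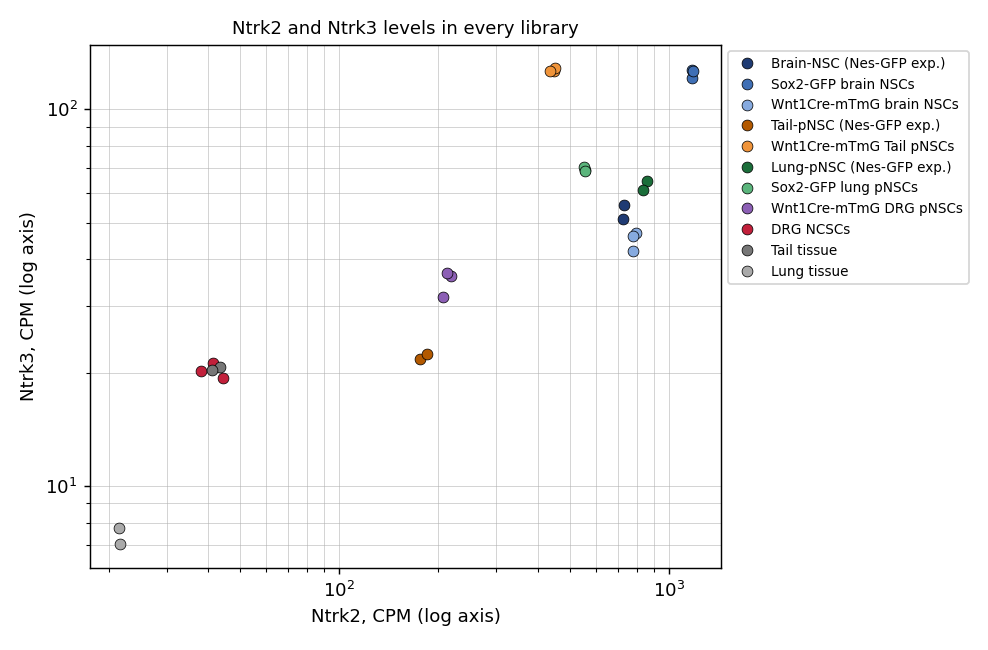
Ntrk2 (x axis) against Ntrk3 (y axis) in CPM in each of the 28 libraries, both axes logarithmic, coloured by group. Most groups lie along a rising band from Lung at the lower left to Sox2-GFP brain NSCs at the upper right. Wnt1Cre-mTmG Tail pNSCs lie above it, at 127 CPM of Ntrk3 for 446 CPM of Ntrk2. Tail-pNSC, at 181 CPM of Ntrk2, is close to DRG NCSCs and Tail in Ntrk3.

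Th, the catecholamine enzyme, was found in DRG NCSCs with 14, 20 and 13 counts (0.653, 0.953 and 0.764 CPM) and with 0 or 1 count in each of the 25 other libraries. It was at least 2.93-fold higher in DRG NCSCs than in Wnt1Cre-mTmG brain NSCs and the groups did not overlap. Th did not pass the filter on low counts within the Wnt1Cre-mTmG experiment, so this bound carries no test there.

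Between genes, levels were compared per kb of annotated exon, which understates genes with many isoforms such as Ntrk2 (19.3 kb) and Ntrk3 (30.2 kb). In DRG NCSCs the mean level was 26.5 CPM per kb for Ret, 3.69 for Pou4f1, 2.17 for Isl1, 2.14 for Ntrk2, 0.671 for Ntrk3 and 0.334 for Th. In Wnt1Cre-mTmG brain NSCs it was 40.7 CPM per kb for Ntrk2 and 1.49 for Ntrk3, and 0.148 for Pou4f1 and 0.119 for Ret. The leading member per kb was Ret in DRG NCSCs, Tail and Lung and Ntrk2 in all 8 NSC and pNSC groups. In the 2 tissues this order rests on the division by exon length. Before it, Ntrk2 stood above Ret, at 42.3 against 19.9 CPM in Tail and 21.6 against 10.3 CPM in Lung.

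Counted by comparison, 5 of 8 members passed the filter in the Nes-GFP and Wnt1Cre-mTmG experiments (Isl1, Pou4f1, Ret, Ntrk2 and Ntrk3) and 3 in the Sox2-GFP experiment (Ret, Ntrk2 and Ntrk3); a member could pass through the group where it is high, so these counts describe the genes and are no support for a shared behaviour. In DRG NCSCs against brain NSCs 5 members were called, Isl1, Pou4f1 and Ret higher and Ntrk2 and Ntrk3 lower, where 36.9% of 14448 tested genes were called, 22.1% higher and 14.8% lower. In Wnt1Cre-mTmG Tail pNSCs 4 were called, Isl1 and Ntrk3 higher and Pou4f1 and Ret lower, against 18.2% of all genes, and in Wnt1Cre-mTmG DRG pNSCs 2, Pou4f1 and Ntrk2 lower, against 9.53%. These 3 comparisons share the brain NSC libraries. Against DRG NCSCs, 5 members were called in Wnt1Cre-mTmG Tail pNSCs (37.9% of all genes) and 4 in DRG pNSCs (38.3%). In both, Isl1, Pou4f1 and Ret were lower in the pNSCs and Ntrk2 higher, by 3.42 ± 0.047 and 2.37 ± 0.047, while Ntrk3 was called in the Tail pNSCs (2.63 ± 0.058) and stayed under the fold limit in the DRG pNSCs (0.79 ± 0.067).

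The pNSCs from tail and from DRG of the same mouse line also differed from each other. In Wnt1Cre-mTmG Tail pNSCs, Isl1 was at least 3.73-fold higher than in DRG pNSCs, Ntrk2 was higher by 1.05 ± 0.042 (adjusted p = 4.37e-13) and Ntrk3 by 1.85 ± 0.058 (adjusted p = 2.03e-14), and Ret was lower by a log2 fold change of -2.06 ± 0.45 (adjusted p = 0.000652). That made 4 members called where 18.0% of genes were. Pou4f1, with 2 to 5 counts per library in both groups, gave -0.33 ± 0.60 (adjusted p = 0.691).

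In the Nes-GFP experiment 4 members were called in Tail-pNSC against Brain-NSC, all lower (Pou4f1, Ret, Ntrk2 and Ntrk3), where 10.9% of 16948 tested genes were called. In Lung-pNSC against Brain-NSC 1 was called, Pou4f1 (8.71% of genes), and in Tail-pNSC against Lung-pNSC 4, all lower in the tail cells (12.9%); there Ntrk2 fell by 2.23 ± 0.035 and Ntrk3 by 1.51 ± 0.074. In Sox2-GFP lung pNSCs against their brain NSCs 2 were called, Ret and Ntrk2, both lower (15.7% of 16234 genes). Against tissue cells, 46.7% of genes were called in Tail-pNSC against Tail and 55.0% in Lung-pNSC against Lung. In Sox2-GFP lung pNSCs against Lung, which crosses experiments, 56.3% were called. The members called in these 3 comparisons numbered 3, 4 and 3. Ret was lower in the pNSCs each time and Ntrk2 higher, by 1.99 ± 0.045, 5.22 ± 0.047 and 4.64 ± 0.036; Ntrk3 was higher by 3.03 ± 0.093 and 3.19 ± 0.070 against Lung, and Pou4f1 by 4.28 ± 0.35 in Lung-pNSC against Lung.

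**Figure D3:**
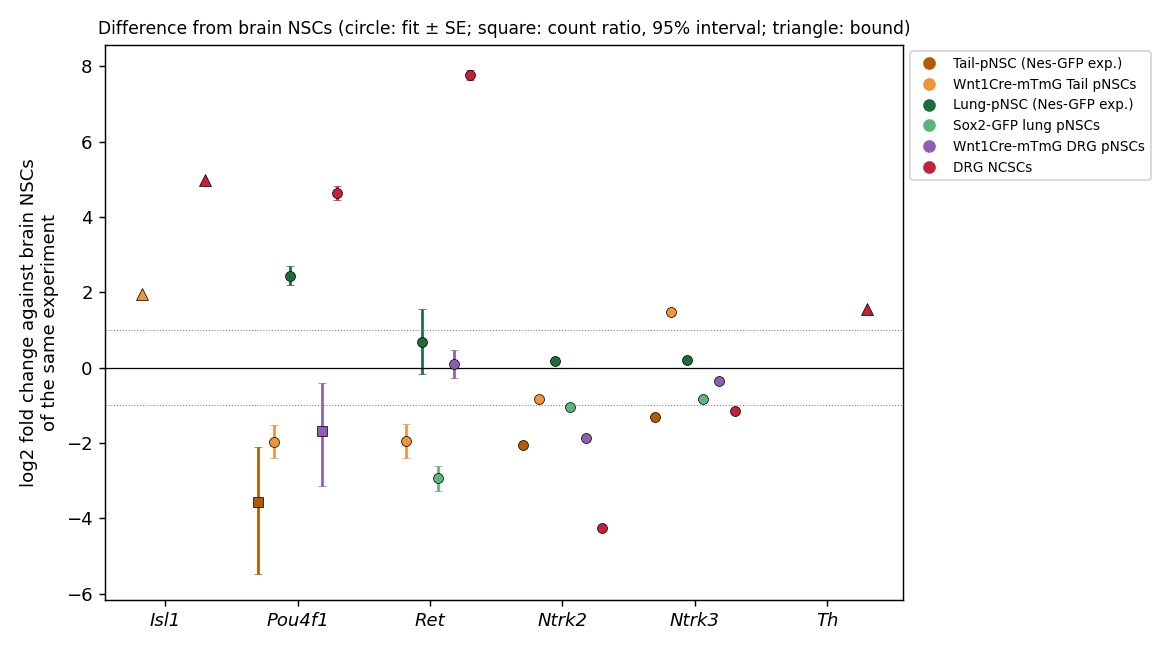
Difference of each culture from the brain NSCs of its own experiment (y axis, log2 fold change) for the 6 members with a value, coloured by culture; circles are fitted changes ± SE, squares count ratios with a 95% counting interval where the culture had 3 counts or fewer per library, triangles lower bounds where the brain NSCs had 0 counts, and dotted lines mark the fold limit of 1; values without a usable fold are not drawn. DRG NCSCs are far above 0 for Isl1, Pou4f1 and Ret and lowest for Ntrk2, and Wnt1Cre-mTmG Tail pNSCs stand above 0 for Ntrk3 (1.48) where Tail-pNSC stands below (-1.30).

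The same kind of cell from a second reporter line allowed the differences from brain NSCs to be compared between experiments, in one fit of all 28 libraries. For tail pNSCs, the log2 fold change against brain NSCs in the Wnt1Cre-mTmG experiment minus that in the Nes-GFP experiment was 1.21 ± 0.052 for Ntrk2 (adjusted p = 2.28e-21), from -0.83 and -2.04, and 2.78 ± 0.083 for Ntrk3 (adjusted p = 3.11e-26), from 1.48 and -1.30. Of 17393 genes 16.0% were called. Pou4f1 (1.53 ± 0.91, adjusted p = 0.173) and Ret (2.25 ± 1.63, adjusted p = 0.277) did not pass, and Isl1, at 0 in both sets of brain NSCs, gave no usable estimate. For lung pNSCs, the same difference, Sox2-GFP minus Nes-GFP, was -2.45 ± 0.61 for Pou4f1 (adjusted p = 0.000925), -3.63 ± 0.91 for Ret (adjusted p = 0.00105), -1.25 ± 0.050 for Ntrk2 (adjusted p = 3.44e-22) and -1.04 ± 0.072 for Ntrk3 (adjusted p = 3.56e-15), and 14.1% of genes were called. The lung value of Ret rests on 1 to 5 counts per library in the Nes-GFP experiment. That of Pou4f1 rests on 3 to 8 counts in Sox2-GFP brain NSCs and 4 to 9 counts in Sox2-GFP lung pNSCs. The Sox2-GFP brain NSCs were themselves highest of the brain NSCs in Ret, Ntrk2 and Ntrk3. For tail pNSCs reporter line, sorting and experiment changed together, and for lung pNSCs reporter line, donor age (adult or postnatal) and experiment, so their shares cannot be told apart.

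Further genes of both lineages were counted in DRG NCSCs against brain NSCs, from lists chosen with earlier results of these data known. A listed gene could pass the filter on low counts only through the group where it is high. These counts therefore describe the genes and are no support for a shared behaviour. Over all genes 22.1% were called higher and 14.8% lower. Of 18 further sensory genes (transcription factors, the cofactors Eya1, Eya2 and Ldb2 and the membrane protein Islr2) 16 were tested, 10 rose and 5 fell, with a fitted median of 2.49, or 2.29 over the 14 genes that allow a fold when genes at 0 are set to their bound. Prrxl1 (Drg11), needed for pain circuits, was at 13.0 CPM against 0 and at least 48.2-fold higher, and Tlx3, which selects neuron subtypes, was at 6.16 CPM against 0 and at least 22.8-fold higher. Eya2 fell from 15.4 to 0.963 CPM (-3.99 ± 0.15). Of 10 autonomic factors 7 were tested, 3 rose and 3 fell, with a median of -0.22 either way. Tlx2 stood at 5.47 CPM against 0, at least 20.3-fold higher, while Insm1 fell from 10.9 to 0.592 CPM and Sox11 from 168 to 20.3 CPM (-3.06 ± 0.045). The median of all tested genes lay at 0.015.

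Receptors, ligands and end products of the sensory lineage stood in DRG NCSCs beside the members. Over all genes 22.1% were called higher and 14.8% lower in this comparison. Of 15 receptors and ligands 12 were tested, 10 rose and 1 fell (fitted median 6.11, 4.77 with bounds). Ngfr, the p75 receptor and a neural crest marker, was at 1217 CPM against 0.537 CPM (11.1 ± 0.085). The partners of Ret were present with it: Gfra1 at 457 CPM (4.00 ± 0.063), Gfra2 at 109 CPM (2.43 ± 0.061), Gfra3 at 17.1 CPM and at least 63.2-fold higher, and the ligands Artn at 170 CPM and Gdnf at 9.02 CPM, whereas Gfra4 fell by 1.31 ± 0.21. For the ligands of Ntrk2 and Ntrk3, Bdnf rose from 4.78 to 37.0 CPM (2.94 ± 0.11) and Ntf3 had 0 counts in both groups. Of 12 sensory effector genes 9 were tested and all 9 rose (fitted median 7.62, 6.25 with bounds), among them the intermediate filament Prph at 156 CPM against 0.297 CPM and the sodium channels Scn9a at 40.6 CPM and Scn10a at 20.5 CPM, both against 0. For a gene that passed the filter only through DRG NCSCs, a rise was fixed in advance. Trpa1, for instance, averaged 3.67 CPM there and 0.0900 CPM in the brain NSCs. 

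Of 9 catecholamine genes 5 were tested in DRG NCSCs against brain NSCs, 1 rose and 2 fell (median 0.40), where 36.9% of all genes were called, 22.1% higher and 14.8% lower. Gch1, which makes the cofactor of Th, rose by 2.37 ± 0.23, and Ddc, the next enzyme after Th, fell from 0.929 to 0.262 CPM (-1.85 ± 0.46). Dbh, which converts dopamine to noradrenaline, averaged 0.0747 CPM in DRG NCSCs and 0 in brain NSCs.

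The further lists were counted in the pNSCs against the brain NSCs of each experiment. In Wnt1Cre-mTmG DRG pNSCs none of 7 tested autonomic factors and none of 12 tested receptors and ligands was called, where 9.53% of all genes were. Of these, 2 and 5 had 3 counts or fewer in every library of both groups. Of the catecholamine genes, none of 5 tested was called in Wnt1Cre-mTmG Tail pNSCs (18.2% of all genes called). None of 7 was called in Sox2-GFP lung pNSCs (15.7%), where 2 had 3 counts or fewer in every library of both groups. With so few genes and these shares, the absence of calls says little about the lists. In Wnt1Cre-mTmG Tail pNSCs, where 18.2% of all genes were called, 6 of 16 tested sensory genes were higher and 3 lower, 3 of 7 autonomic factors higher, 4 of 12 receptors and ligands higher and 2 of 9 effectors higher and 1 lower. The effectors that rose were P2rx3, an ATP-gated channel of nociceptors, at 38.2 against 1.10 CPM (5.09 ± 0.13) and Piezo2, the channel of touch, at 37.3 against 7.82 CPM (2.24 ± 0.12). P2rx3 was also found in Sox2-GFP brain NSCs, at 13.8 CPM. Gdnf, a ligand of the Ret complex, was at 2.50 CPM against 0 and at least 9.27-fold higher, and Bdnf rose by 1.17 ± 0.12. In Wnt1Cre-mTmG DRG pNSCs (9.53% of all genes called) 2 of 16 sensory genes were higher and 4 lower, 1 of 5 catecholamine genes higher and 1 of 9 effectors lower. Runx1, a nociceptor factor, rose by 2.44 ± 0.17. Its mean was also above that of the matching brain NSCs in the other pNSC groups. It stood at 6.55 against 1.49 CPM in Wnt1Cre-mTmG Tail pNSCs and at 13.3 against 3.29 CPM in Sox2-GFP lung pNSCs. Tail-pNSC had 6.50 CPM and Lung-pNSC 3.72 CPM, against 1.26 CPM in Brain-NSC. In Tail-pNSC (10.9% called) 3 of 13 sensory genes were higher and 1 lower, 1 of 6 autonomic factors, 1 of 14 receptors and ligands and 1 of 7 catecholamine genes higher, and of 6 effectors 1 higher and 1 lower. The receptor was Gfra2, a co-receptor of Ret, at 9.26 against 2.09 CPM (2.12 ± 0.18). In Lung-pNSC, the pNSC group with high Pou4f1, Shox2 stood at 4.94 against 0.0484 CPM, and 4 of 13 sensory genes were higher and 1 lower, 2 of 6 autonomic factors, 1 of 14 receptors and ligands and 1 of 7 catecholamine genes higher and 2 of 6 effectors lower (8.71% of all genes called). In Sox2-GFP lung pNSCs Shox2 was at 0.0158 CPM against 4.53 CPM in their brain NSCs, and 2 of 11 sensory genes were higher and 4 lower, 1 of 6 autonomic factors lower, 1 of 12 receptors and ligands higher and 2 lower and 2 of 5 effectors lower (15.7% of all genes called).

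**Figure D4:**
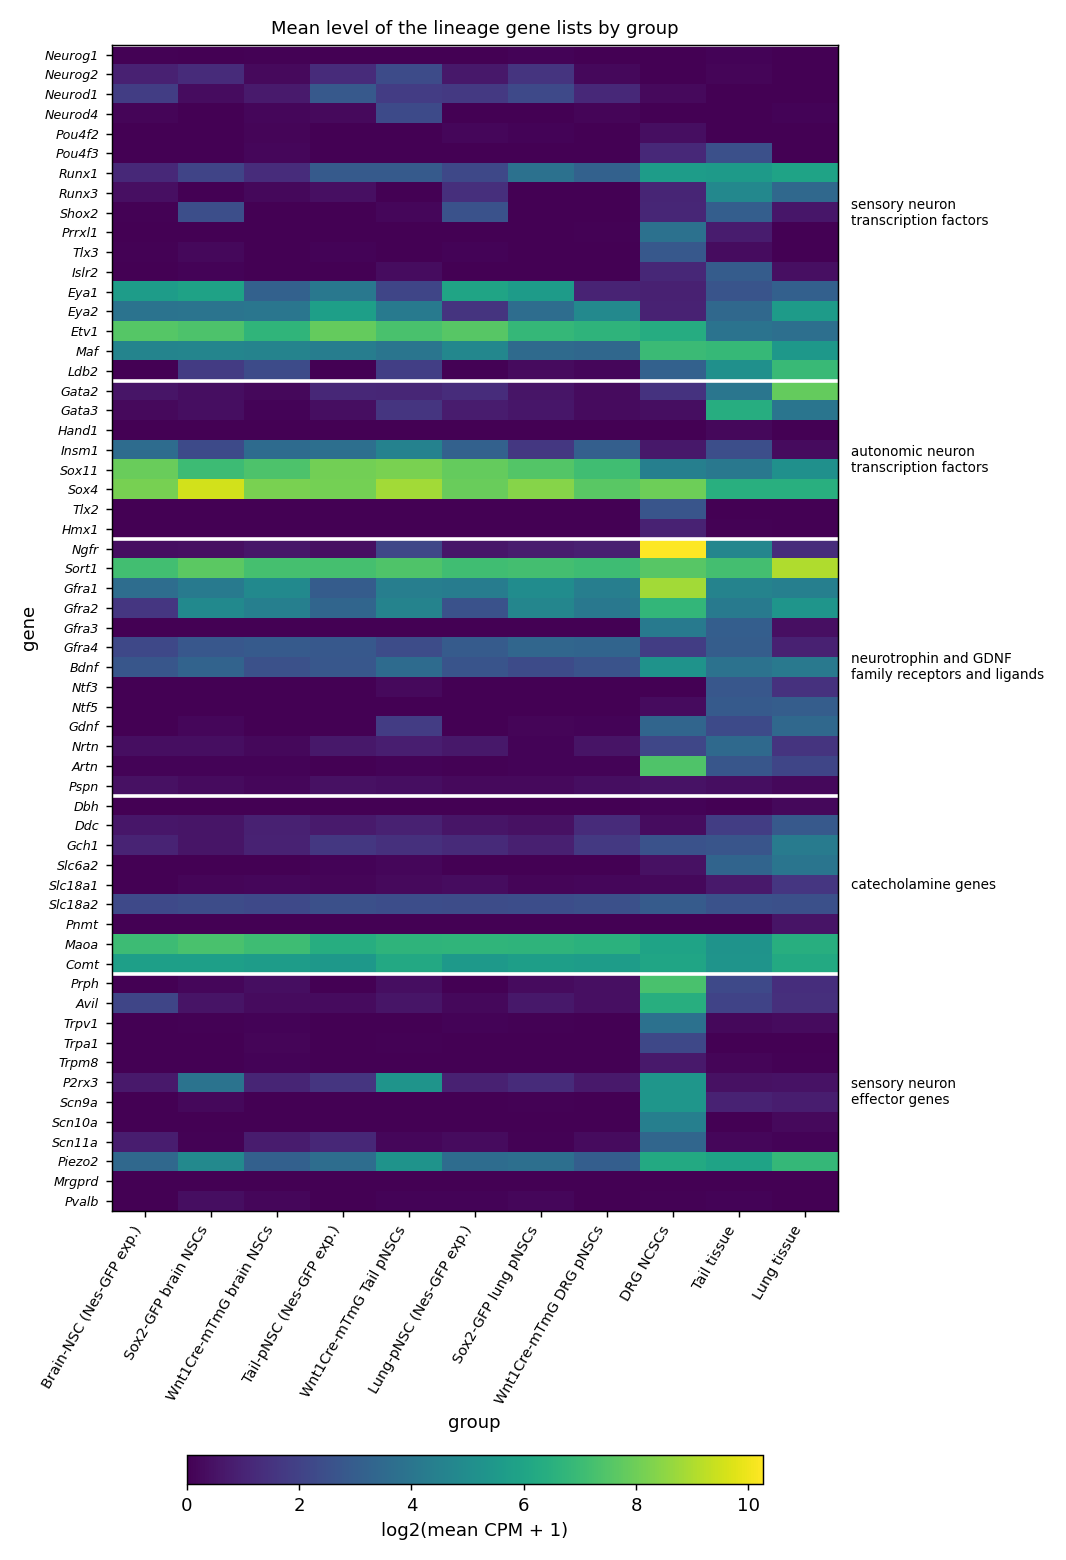
Mean level, as log2(mean CPM + 1) on the colour scale, of genes of the 5 further lists (rows) in the 11 groups (columns), to be read along a row. The DRG NCSC column is brighter than those of the brain NSCs and pNSCs for Ngfr (1217 CPM), Gfra1 (457 CPM), Artn (170 CPM) and Prph (156 CPM). P2rx3 is also bright in Wnt1Cre-mTmG Tail pNSCs (38.2 CPM) and stands at 13.8 CPM in Sox2-GFP brain NSCs.

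The labelled identities were compared with marker genes. The 8 neural crest and Schwann cell markers summed to 5179 to 5458 CPM in DRG NCSCs and to 10.0 to 218 CPM in brain NSCs and pNSCs, and of the 6 neural stem cell markers Olig2, Pax6, Sox1 and Fabp7 fell in DRG NCSCs while Sox2 and Nes stayed under the fold limit. All 6 were above 1 CPM in every NSC and pNSC group. The DRG NCSC libraries also held markers of neurons (11 of 11 above 1 CPM, 1569 to 1624 CPM summed), leukocytes (5 of 5, 594 to 630 CPM), fibroblasts (6 of 6, 2822 to 3478 CPM) and endothelium (3 of 4, 23.5 to 28.9 CPM). Of the 11 neuronal markers, 7 were higher in DRG NCSCs than in brain NSCs, as Isl1, Pou4f1, Ret and Th were, and 2 were lower. Stmn2 was at 250 against 0.118 CPM and Nefl at 414 against 4.61 CPM, while Map2 was at 122 against 953 CPM and Dcx at 1.80 against 9.63 CPM. Over all 11 neuronal markers the sum was 1030 to 1039 CPM in Wnt1Cre-mTmG brain NSCs and 1765 to 1851 CPM in Wnt1Cre-mTmG DRG pNSCs. Brain-NSC (1758 to 1835 CPM) and Lung-pNSC (1677 to 1695 CPM) also lay above DRG NCSCs, and the other NSC and pNSC groups below. Each brain NSC group had 9 or 10 of the 11 above 1 CPM. The part of the neuronal markers in the levels of the members was not tested. Leaving out each library of the comparison with brain NSCs in turn, DRG NCSC replicate 3 among them, gave 4.39 to 4.80 for Pou4f1, 7.62 to 7.89 for Ret, -4.30 to -4.20 for Ntrk2 and -1.21 to -1.12 for Ntrk3.

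Over the 11 group means of log2(CPM + 1), the genes most like a member among 14437 candidates were Zfp536 (Pearson r = 0.983), Ngfr (0.982) and Slc24a2 (0.98) for Isl1; Ncstn (0.894), Aatk (0.883) and Rps6kc1 (0.873) for Pou4f1; and Entpd2 (0.988), L1cam (0.985) and Fkbp1b (0.982) for Ret, all highest in DRG NCSCs. For Ntrk2 they were Pfkm (0.984), Etfdh (0.978) and Pfn4 (0.977), and for Ntrk3 Ndufb11 (0.963), Usp11 (0.962) and Hadha (0.956). Among the members, r was 0.877 for Ntrk2 and Ntrk3, 0.845 for Isl1 and Ret, 0.646 for Isl1 and Pou4f1 and -0.759 for Ret and Ntrk2. These are descriptions of 11 points that share experiments and library depth, and the 3 members below 5 CPM in every group (Phox2a, Th and Hand2) were left out.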

How the data were processed

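RNA sequencing libraries (polyA-selected, NEBNext Ultra RNA kit, single-end NextSeq) were aligned by the authors with HISAT2 to GRCm38 and counted per gene with HTSeq, and the deposited values are raw counts of 28244 genes in 28 libraries. Whether counting used strand is not given in the sources used here. The 5 groups whose labels name no reporter were assigned to the Nes-GFP experiment from the study's description. Genes were filtered with filterByExpr, scaled by TMM and tested two-sided with edgeR 4.0.16 in R 4.3.3 (quasi-likelihood), with 1 fit per experiment for 13 comparisons and 1 fit of all 28 libraries for 2 differences between experiments. Lung of the Nes-GFP experiment was also included in the Sox2-GFP fit. The p-values were adjusted over all tested genes. Alternatives were DESeq2 1.42.0, RLE scaling, no filter, no fold limit, 2-group fits, the all-library fit, replicate blocks and leaving out each library. Count ratios carry exact 95% intervals, which cover counting error only. Named genes of the further lists are the direct partners of the members and, among genes with a group mean of at least 5 CPM, those with the largest changes, up to 3 per list and direction. The members and lists were chosen with earlier results of these data known. Some genes of the lists are counted but not reported by name here. Scripts were tested on simulated data.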

Additional observations from a re-analysis of the deposited data

Results flagged for a closer look

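For 6 member values the difference between pNSCs and brain NSCs was itself compared between experiments, and the gap passed both thresholds (edgeR, all 28 libraries). For tail pNSCs, Wnt1Cre-mTmG minus Nes-GFP, the difference of log2 fold changes was 1.21 for Ntrk2 and 2.78 for Ntrk3. Ntrk3 was higher than in brain NSCs in the 3 Wnt1Cre-mTmG Tail pNSC libraries and lower in the 2 Tail-pNSC libraries, whereas Ntrk2 was lower in both, by a log2 fold change of -0.83 in the former and -2.04 in the latter. For lung pNSCs, Sox2-GFP minus Nes-GFP, it was -2.45 for Pou4f1, -3.63 for Ret, -1.25 for Ntrk2 and -1.04 for Ntrk3. Pou4f1 was above Brain-NSC in both Lung-pNSC libraries. It was at 4 to 9 counts in the Sox2-GFP lung pNSCs and at 3 to 8 counts in their brain NSCs, and did not pass the filter in the Sox2-GFP fit. In the tail comparison reporter line, sorting and experiment cannot be told apart, and in the lung comparison reporter line, donor age and experiment.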

How the results depend on the processing

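Of 186 alternative values for the 15 counts of called members, 180 stayed within 1.5 times the main count. Without a filter on low counts the count rose from 3 to 5 in Tail-pNSC against Tail and in Sox2-GFP lung pNSCs against Lung. Without the fold limit it rose from 1 to 3 in Lung-pNSC against Brain-NSC, and the calls over all genes, 1377 to 9327 per comparison with the limit, were then 6634 to 14736. In Wnt1Cre-mTmG DRG pNSCs against brain NSCs it fell from 2 to 1 with only the 2 groups fitted and ranged from 1 to 2 when single libraries were left out. The log2 fold change of Ntrk3 in Tail-pNSC against Tail turned to -0.0463 with RLE scaling, -0.0464 with DESeq2 and -0.0195 with only the 2 groups, and ranged from -0.0192 to 0.0355 with single libraries left out. That of Ret in Wnt1Cre-mTmG DRG pNSCs against brain NSCs ranged from -0.166 to 0.524 and was below 0 without brain NSC replicate 1 (-0.0616) or DRG pNSC replicate 2 (-0.166) or 3 (-0.151). Of 32 group levels, 15 moved by more than 1 SD under RLE scaling. The causes were not tested. Replicates with the same number did not deviate together (r from -0.0476 to 0.0947 over the 3 experiments). The study states that control brain NSCs and pNSCs mostly came from the same mice. Most replicates differed by little more than counting noise, so this check cannot tell whether the numbers pair the samples. With a replicate block the count of called members in DRG NCSCs against brain NSCs was 5, and no count changed. At these depths Phox2a, Th and Hand2 lie near the floor of 3 counts, and 2 libraries per group leave the Nes-GFP experiment with little replicate information.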
